A study of Homo sapiens with 14 samples.

Results

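Prostaglandins are made and read by a small set of genes, of which 8 are described here in human lung fibroblasts. The genes are PTGS1 and PTGS2 (the cyclooxygenases), PTGES and PTGIS (terminal synthases), PTGER2, PTGER4 and PTGFR (receptors) and HPGD (the inactivating enzyme). They were listed by name for their place in the pathway, with earlier results of these data known. They are 8 of the 24639 genes listed in all 3 kinds of deposited table. Each was found in every table.

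Cyclooxygenases turn arachidonic acid, freed from membranes by phospholipase A2, into the unstable intermediate prostaglandin H2. PTGS1 is the constitutive and PTGS2 the inducible enzyme, PTGES makes prostaglandin E2 from the intermediate, and PTGIS makes prostacyclin. PTGER2 and PTGER4 are the prostaglandin E2 receptors that raise cAMP, PTGFR is the receptor of prostaglandin F2alpha, and HPGD oxidises prostaglandins to inactive products. In lung fibroblasts prostaglandin E2 is known as a brake on proliferation and collagen production, and PTGS2 is often counted among the inflammatory genes of senescent cells.

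The samples were poly(A)-selected RNA of IMR90, primary human fibroblasts from fetal lung, in 7 groups with 2 samples each by their titles. Isolates I79 and I10 of IMR90 were sampled young (proliferating) and old (in replicative senescence), with 1 deposited table for each of these 4 groups. A further I79 group received inflachromene (ICM), a compound that targets HMGB1 and HMGB2. WT cells and cells with HMGB2 depleted by siRNA (HMGB2 KD) made up the last pair of groups. For WT and HMGB2 KD the isolate is not in the labels, nor is a control siRNA for WT, and for no group do the labels say that replicates were separate cultures. P-values of WT against HMGB2 KD therefore measure the spread between these samples, which may be technical. Those of old against young have 1 table per group and rest on how far I79 and I10 differed in their old to young change. All groups are IMR90 cells, and fewer cells expressing a gene cannot be told apart from less RNA per cell.

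Depth was 33561766 to 41168932 counts per library in WT and HMGB2 KD, 14991385 to 20632959 estimated counts in old and young, and 10971132 and 13290131 reads under ICM. HMGB2 itself fell in HMGB2 KD, from 27.1 and 27.3 to 3.22 and 3.64 CPM (counts scaled to a common library size by the TMM method). All 9 fibroblast markers reached 1 CPM in all 10 columns. Of the epithelial markers 1 or 2 of 5 did so (KRT8 highest, SFTPC at or under 3 counts in every column), of the endothelial markers 0 to 2 of the 3 listed, and of the leukocyte markers CD68 alone of 5.

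The 250 bases upstream of PTGS2 and PTGES are shown because these were the members called in the knockdown comparison. Both were taken from RefSeq promoter windows of the GRCh38.p14 assembly and matched once in GRCh37, the build of the deposited tables. There the PTGS2 stretch is chr1:186649556-186649805 and the PTGES stretch chr9:132515322-132515571, both on the minus strand. Capitals mark searched motifs.
PTGS2: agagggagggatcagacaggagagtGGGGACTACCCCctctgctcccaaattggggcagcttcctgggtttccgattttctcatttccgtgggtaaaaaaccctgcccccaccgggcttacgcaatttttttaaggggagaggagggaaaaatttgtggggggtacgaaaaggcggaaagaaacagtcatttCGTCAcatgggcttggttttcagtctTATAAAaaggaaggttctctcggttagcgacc
PTGES: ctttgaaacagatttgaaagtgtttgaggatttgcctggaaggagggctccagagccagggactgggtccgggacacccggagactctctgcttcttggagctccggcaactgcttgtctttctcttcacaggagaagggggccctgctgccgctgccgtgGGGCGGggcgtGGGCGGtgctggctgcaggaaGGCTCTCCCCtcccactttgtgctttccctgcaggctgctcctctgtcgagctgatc

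The letters searched on both strands were TATAAA (the TATA box), CGTCA (the core of a cAMP response element), a loose NF-kB-like pattern (GGG and CC with 5 free bases between them) and GGGCGG (a GC box). Positions are counted from the start site, with -1 the base before it. In PTGS2 a TATAAA lay from -32 to -27 and a CGTCA from -58 to -54, and overlapping NF-kB-like matches covered -225 to -214. PTGES held neither TATAAA nor CGTCA, but it held a pair of GC boxes (from -89 and from -78) and an NF-kB-like match on the opposite strand (-57 to -48). GC content was 50.4% in PTGS2 and 61.2% in PTGES, against a median of 58% over all windows. Of 35116 RefSeq windows of this length 10.7% held TATAAA, 21.2% CGTCA, 54.4% the NF-kB-like pattern and 42.6% GGGCGG. The NF-kB-like pattern and the GC box were thus common letters. A match is a description of the sequence and was not tested for binding.

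The first comparison asked which prostaglandin genes change when HMGB2, a chromatin protein that is lost in senescence, is depleted. PTGS2 and PTGES, the consecutive enzymes from arachidonic acid to prostaglandin E2, both fell, while neither PTGS1 nor any receptor was called. Of the 7 members that passed the filter on low counts, 2 were called, both lower, against 5.2% of all 15338 genes tested (2.34% lower, 2.86% higher). A call required an adjusted p under 0.01 in edgeR's quasi-likelihood test and a log2 fold change (log2FC) of more than 0.6 in size. Over all genes 438 were called higher and 359 lower, which became 385 and 484 when libraries were scaled by plain totals instead of TMM.

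The PTGS2 gene spans 186640923 to 186650054 on chromosome 1 (GRCh37, minus strand). The WT libraries held 999 and 567 CPM (34216 and 21159 counts), the HMGB2 KD libraries 202 and 72.2 CPM (7398 and 2877 counts). The lower WT library was well above the higher HMGB2 KD library, so the groups did not overlap, although the replicates within each group also lay far apart. The WT mean was 783 ± 306 CPM and the HMGB2 KD mean 137 ± 91.9 CPM (SD, n = 2 each). edgeR gave a log2FC of -2.51 with SE 0.36 and an adjusted p of 0.00059. The antisense noncoding gene PACERR overlaps PTGS2, and since the use of strand in counting was not stated, reads of the pair cannot be told apart. With DESeq2 in place of edgeR the adjusted p of PTGS2 was 0.016, which missed the threshold of 0.01. Leaving out HMGB2 KD replicate 1 moved the log2FC to -3.45 and leaving out HMGB2 KD replicate 2 moved it to -1.95, and the gene stayed called without any 1 of the 4 libraries.

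PTGES, the inducible microsomal prostaglandin E synthase, lies on chromosome 9 from 132500610 to 132515321 (GRCh37, minus strand) and overlaps no other annotated gene. WT libraries held 88.1 and 54.5 CPM of it and HMGB2 KD libraries 38.8 and 20.6 CPM (3015 and 2036 against 1420 and 820 counts). The groups did not overlap, and in both groups the replicate that was higher in PTGS2 was also higher in PTGES. The log2FC was -1.27 (SE 0.25, adjusted p 0.0052 by edgeR). This call depended on HMGB2 KD replicate 2: without it the log2FC was -0.87 with an adjusted p of 0.052 by edgeR, and by DESeq2 with all libraries the adjusted p was 0.13.

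PTGS1, the constitutive cyclooxygenase (chromosome 9, 125132809 to 125157982, plus strand), was at 494 and 501 CPM in the WT libraries, against 419 and 376 CPM after knockdown. The drop was small and the gene was not called (log2FC -0.32, SE 0.14, adjusted p 0.17 by edgeR). The order of the cyclooxygenases per length, in CPM per kb of exons, therefore differed between the groups. PTGS2 led with a mean of 143 CPM per kb in WT against 86.0 for PTGS1, whereas in HMGB2 KD PTGS1 led with 68.7 against 25.0 for PTGS2.

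The other members were expressed at low to moderate levels and none was called. PTGFR stood at 16.3 and 13.1 CPM in the WT libraries, against 10.98 and 8.10 CPM after knockdown, with a log2FC of -0.62 (SE 0.19) and an adjusted p of 0.049 by edgeR. PTGER2 stood at 30.3 and 37.5 CPM in the WT libraries, against 24.3 and 28.8 CPM after knockdown (log2FC -0.35, adjusted p 0.17). Neither receptor passed the threshold, though no HMGB2 KD library reached the level of a WT library in either gene. PTGER4 was level across libraries, with 8.15 and 7.39 CPM in the WT libraries, against 8.90 and 8.18 CPM after knockdown (log2FC 0.14, SE 0.18, adjusted p 0.73). PTGIS, the prostacyclin synthase, went the other way, from 2.10 and 2.41 CPM to 4.48 and 3.76 CPM (log2FC 0.87, SE 0.28, adjusted p 0.063). HPGD had 0 counts in all 4 libraries and was not tested. In all 7 tested members the groups did not overlap, which was also so for 53.8% of all genes tested.

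**Figure D1:**
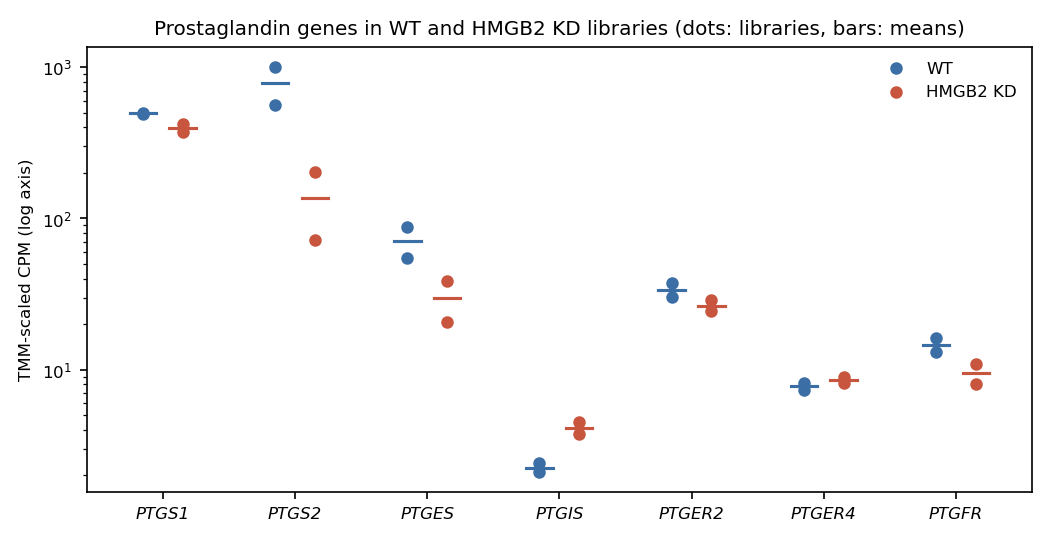
TMM-scaled CPM (log axis) of the 7 members with reads in WT (blue) and HMGB2 KD (red) libraries, where each dot is a library and each bar the mean of 2. PTGS2 drops from 999 and 567 to 202 and 72.2 CPM, below PTGS1, and PTGES drops beside it, while the dots of PTGS1 and PTGER4 stay close together.

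Upstream of the cyclooxygenases, 2 of 8 tested genes of arachidonic acid release and prostaglandin transport were called, beside 5.2% of all genes tested. PLA2G4A, the cytosolic phospholipase A2 that frees arachidonic acid, fell with PTGS2 and PTGES, from 64.1 and 43.5 CPM to 30.0 and 15.7 CPM (log2FC -1.24, adjusted p 0.0049 by edgeR). Like PTGES it lost its call without HMGB2 KD replicate 2 (log2FC -0.84, adjusted p 0.037) and by DESeq2 (adjusted p 0.11). PLA2G15, a lysosomal phospholipase, rose from 18.3 and 20.1 CPM to 47.8 and 57.8 CPM (log2FC 1.46, adjusted p 4.78e-05 by edgeR). It kept its call under all 11 alternatives, which include the main fit read at an adjusted p under 0.05, where no call can be lost. The median log2FC of the 8 was -0.24, beside 0.00 over all genes.

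Among the other prostanoid synthases and reductases 1 of 11 tested genes was called, and of the other receptors 0 of 5. Of all genes tested 5.2% were called. PTGR1, a reductase that acts downstream of prostaglandin oxidation, fell from 100.5 and 90.1 CPM to 58.2 and 58.3 CPM (log2FC -0.71, adjusted p 0.0023 by edgeR). Without WT replicate 1 or without HMGB2 KD replicate 2 it missed the threshold, at log2FCs of -0.63 and -0.71. Among the 5 other receptors 1 had an unadjusted p under 0.05 by edgeR, as did 23.9% of all genes, and DESeq2 called 0, against 6.57% of the genes to which it gave an adjusted p. In the lipoxygenase branch, which competes for arachidonic acid, 0 of 3 tested genes were called, with 1 at an unadjusted p under 0.05 by edgeR and 0 called by DESeq2, beside the same shares of all genes.

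Of 15 tested cAMP-response genes 2 were called, both lower, beside 5.2% of all genes called and 2.34% called lower. The list includes targets of signalling through PTGER2 and PTGER4. In it 14 genes had a negative log2FC, as did 49.7% of all genes tested. The direction of the list as a whole was not tested. NR4A2, an immediate early nuclear receptor, fell from 312 and 268 CPM to 122 and 73.4 CPM (log2FC -1.57, adjusted p 0.00025 by edgeR). RGS2, a regulator of G protein signalling, fell from 102 and 111 CPM to 60.6 and 41.2 CPM (log2FC -1.06, adjusted p 0.00092). Both kept their calls in all 11 alternatives, among which the looser threshold could not remove a call. The median of the list was -0.31, and these genes also answer to many other signals.

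Fibroblast markers moved in the same libraries, with 4 of 9 called, beside 5.2% of all genes tested. COL1A1 (log2FC 1.00), PDGFRB (1.06) and VIM (0.78) rose, and COL3A1 fell (-1.18), by the same edgeR test. The summed level of the 9 markers was 20523 and 27417 CPM in the WT libraries and 29445 and 34446 CPM after knockdown, without overlap. COL1A1 was the largest part of the HMGB2 KD sums, at 11676.4 and 14965.5 CPM, so the sum does not speak for all 9 markers. The part of these differences in the values of PTGS2 and PTGES was not tested.

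The second comparison set old against young cells over both isolates. By the same edgeR rule 0 of the 7 tested members were called, against 9.57% of the 15116 genes tested (5.75% higher, 3.82% lower). An unadjusted p under 0.05 was reached by 4 members and by 45.4% of all genes. DESeq2 called 2 members (PTGS1 and PTGFR) and 14% of the genes to which it gave an adjusted p. With 1 table for each group and isolate as a covariate, the fit had 1 residual degree of freedom. Higher calls numbered 869 and lower calls 578 over all genes, and 1019 and 2111 under plain totals, since TMM scaling raised every old to young log2 ratio by 0.16 in I79 and by 0.26 in I10. The labels were checked on senescence markers: HMGB2 (log2FC -1.64) and LMNB1 (-2.86) fell and CDKN1A rose (2.48).

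PTGS1 and PTGFR were higher in the old columns of both isolates. PTGS1 stood at 320 CPM in young and 551 CPM in old I79, and at 179 CPM in young and 579 CPM in old I10. The old columns lay above both young columns. Old and young columns did not overlap in 4 of 7 members, which was also so for 74% of all genes tested. PTGS1 had a log2FC of 1.24 (SE 0.24) and an adjusted p of 0.023 by edgeR. PTGFR stood at 4.29 CPM in young and 19.5 CPM in old I79, and at 8.45 CPM in young and 20.0 CPM in old I10. The old isolates were almost level with each other, while the young ones differed. Its log2FC was 1.68 (SE 0.27, adjusted p 0.014 by edgeR), and adjusted p over the 7 alternatives ranged from 5.88e-11 to 0.018, against 5.4e-10 to 0.031 for PTGS1. In both genes the lowest value came from edgeR without the filter on low counts, where genes called rose from 1447 to 4251.

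The prostaglandin E2 receptors differed from each other. PTGER2, the more abundant, went from 146 (young) to 75.0 CPM (old) in I79 and, in I10, from 138 to 115 CPM (log2FC -0.61, SE 0.19, adjusted p 0.068 by edgeR). PTGER4 went from 3.46 (young) to 5.70 CPM (old) in I79 and, in I10, from 3.34 to 5.42 CPM (log2FC 0.71, SE 0.24, adjusted p 0.080). Neither passed the threshold. PTGER4 rests on 54 to 105 estimated counts per column and overlaps TTC33 on the opposite strand.

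PTGS2, PTGES and PTGIS had old to young ratios above 1 in I79 and below 1 in I10, and their standard errors in the fit over both isolates were the largest of the members. PTGS2 stood at 4.93 CPM in young and 11.4 CPM in old I79, but at 6.47 CPM in young and 3.04 CPM in old I10 (77, 210, 124 and 55 estimated counts). PTGES stood at 18.6 and 22.9 CPM in young and old I79, and at 17.1 and 6.30 CPM in young and old I10. PTGIS stood at 33.3 and 52.9 CPM in I79 and at 49.6 and 15.8 CPM in I10, in the same order. In all 3 genes the young and old columns overlapped, with old I79 the highest and old I10 the lowest of the 4. The log2FCs by edgeR were 0.11 (SE 0.58, adjusted p 0.90) for PTGS2, -0.52 (SE 0.43, adjusted p 0.39) for PTGES and -0.46 (SE 0.57, adjusted p 0.56) for PTGIS. That of PTGS2 turned to -0.10 under plain totals.

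**Figure D2:**
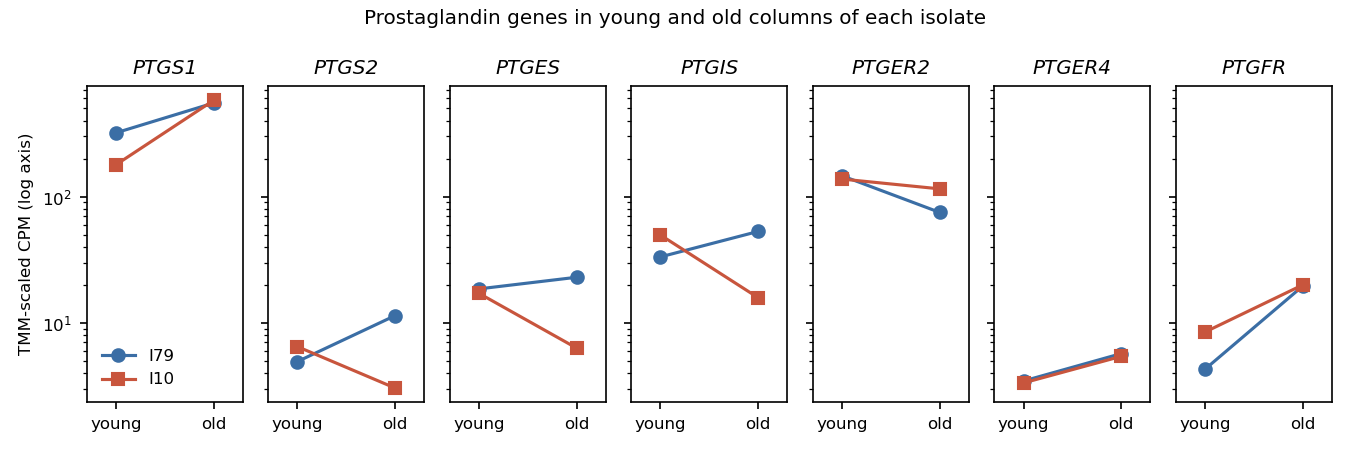
TMM-scaled CPM (log axis) of the 7 members with reads in the young and old columns of isolates I79 (blue circles) and I10 (red squares), 1 column per group. The lines of PTGS1, PTGER4 and PTGFR rise in both isolates and those of PTGER2 fall in both, whereas PTGS2, PTGES and PTGIS rise in I79 and fall in I10.

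Within an isolate each ratio of old to young rests on 1 column a group and has no replicate check. On plain totals 4 of 7 members were past an absolute log2 ratio of 0.6 in I79 and 5 of 7 in I10, beside 42.7% and 42.2% of all genes. The old to young ratio of PTGS2 was 2.06 in I79 (95% exact interval 1.58 to 2.71) and 0.393 in I10 (0.281 to 0.544). That of PTGES was 1.10 in I79 (0.948 to 1.29, an interval that includes no change) and 0.308 in I10 (0.247 to 0.382). The ratio of PTGIS was 1.42 in I79 (1.27 to 1.58) and 0.267 in I10 (0.233 to 0.305). For PTGS2 and PTGIS the intervals of the isolates lay on opposite sides of 1, and these intervals cover counting error only.

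The old and young tables also give annotated transcripts, by estimated assignment of reads. Most of the PTGS1 signal in TPM (transcript abundance corrected for length) was assigned to PTGS1-202, whose share was 60.0% in young and 78.5% in old I79, and 52.3% in young and 73.6% in old I10. The share of the second transcript, PTGS1-201, was 21.4% in young and 15.7% in old I79, and 29.6% and 15.6% in I10. The estimated counts of PTGS1-202 were 3897 in young and 9101 in old I79 and 2476 and 9109 in I10, whereas those of PTGS1-201 were 618 and 812 in I79 and 625 and 859 in I10. PTGS1-202 was thus higher in old columns by more than PTGS1-201 was, in both isolates. PTGS2, PTGES and PTGFR each had over 90% of their TPM on a single transcript in every column (PTGS2-201, PTGES-201 and PTGFR-202).

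**Figure D3:**
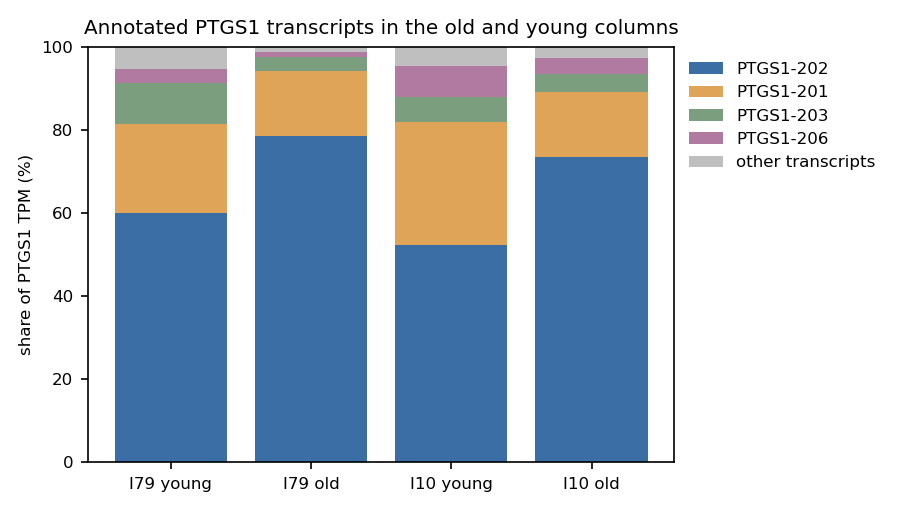
Share of the TPM of PTGS1 (%) assigned to each annotated transcript in the 4 old and young columns, 1 bar per column. The blue share, PTGS1-202, is larger in the old column of each isolate (78.5% and 73.6%) than in the young one (60.0% and 52.3%).

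Levels per length in TPM showed which members led. PTGS1 was first in young I79 (140 TPM against 116 for PTGER2), old I79 (193 against 54.9) and old I10 (200.5 against 80.4), while in young I10 PTGER2 led with 112 TPM against 85.2 for PTGS1. PTGS2 was among the lowest members with reads, between 0.994 and 4.04 TPM. PTGES lay between 5.57 and 21.2 TPM, PTGIS between 4.52 and 15.3 TPM, PTGFR between 1.66 and 6.89 TPM and PTGER4 between 1.52 and 5.31 TPM. HPGD was listed at 0 in every column.

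Other genes of the pathway were called in old against young cells, counted here by list beside 9.57% of all genes tested. Among release and transport genes 1 of 8 tested was called: PLA2G4C, a phospholipase A2, rose from 2.94 (young) to 18.3 CPM (old) in I79 and, in I10, from 2.56 to 14.6 CPM (log2FC 2.57, adjusted p 0.0040 by edgeR). Of 12 tested synthases and reductases 2 were called, both higher. AKR1B1, an aldo-keto reductase with prostaglandin F synthase activity, rose from 137 to 471 CPM and from 113 to 389 CPM (log2FC 1.78, adjusted p 0.0036). PTGDS, a prostaglandin D synthase, rose from 5.25 to 18.0 CPM and from 2.24 to 5.86 CPM (log2FC 1.60, adjusted p 0.0092), a call that was lost without isolate as a covariate (adjusted p 0.11).

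Among the 5 other receptor genes tested 1 was called, beside 9.57% of all genes tested. PTGFRN, a membrane protein that inhibits binding of prostaglandin F2alpha to PTGFR, fell from 149 to 2 estimated counts in I79 and, in I10, from 164 to 6 (log2FC -5.33, adjusted p 0.0046 by edgeR). As the fitted value of so few counts depends on the prior count, the ratio of old to young on plain totals is given too: 0.0102 in I79 (95% exact interval 0.00122 to 0.0373) and 0.0324 in I10 (0.0117 to 0.0721). PTGFR and PTGFRN therefore had log2FCs of opposite sign. Of 16 tested cAMP-response genes 2 were called, beside the same 9.57% of all genes. These were DUSP1, higher (log2FC 1.26, adjusted p 0.0043 by edgeR), and RGS2, lower (-1.18, adjusted p 0.0058). The call of RGS2 was lost without isolate as a covariate (adjusted p 0.027). In the lipoxygenase branch 0 of 5 tested genes were called, with 1 at an unadjusted p under 0.05 by edgeR and 0 called by DESeq2, beside 45.4% and 14% of all genes.

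Medians of log2FC were 0.11 over the 7 members, 0.38 over release and transport genes, -0.15 over synthases and reductases, 0.37 over the other receptors and -0.23 over cAMP-response genes, beside -0.01 over all genes. Markers also differed between old and young cells. LUM was the 1 fibroblast marker called of 9 (log2FC 0.92, adjusted p 0.0084 by edgeR), beside 9.57% of all genes tested. VIM (1.13), DCN (1.11), PDGFRA (-1.18), COL3A1 (-0.96) and COL1A1 (-0.90) had values of similar or larger size and were not called. Summed, the fibroblast list was at 31240 CPM in young and 23017 CPM in old I79, and at 29887 and 29330 CPM in I10. Of the endothelial markers VWF held 7 counts in each young column, 52 in old I79 and 45 in old I10 (log2FC 2.69, adjusted p 0.013), and KDR was at 81 counts in old I79 and at 0 to 3 in the other columns, while CDH5 was at 0. The epithelial marker KRT19 had a log2FC of -1.76 (adjusted p 0.047). CD68, a lysosomal protein used as a leukocyte marker, rose with age, from 21.4 (young) to 158 CPM (old) in I79 and, in I10, from 23.2 to 84.5 CPM (log2FC 2.37, adjusted p 0.0066 by edgeR). CD3E and MS4A1, markers of lymphocytes, were at or under 3 counts in every column, and the summed level of the leukocyte list ranged from 24.6 to 160 CPM, nearly all from CD68. The part of these markers in the values above was not tested.

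**Figure D4:**
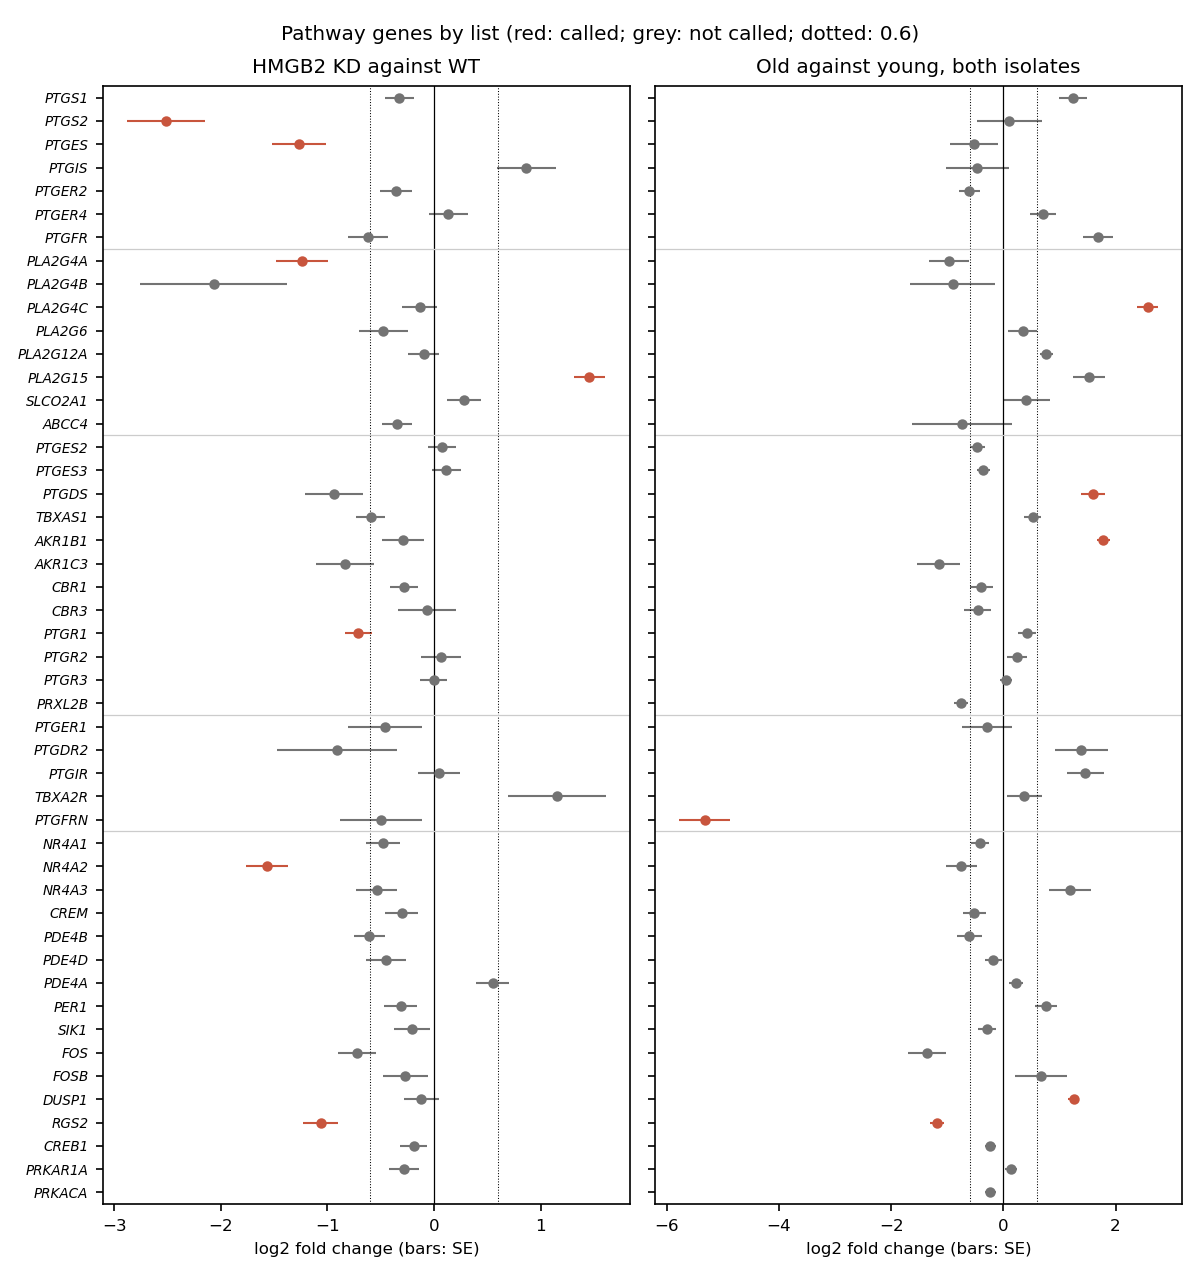
Log2 fold change (points, with SE as bars) of tested members and of tested release, synthase, receptor and cAMP-response genes, from top to bottom with grey lines between lists, for HMGB2 KD against WT (left) and old against young (right). Red points were called; PTGS2, PTGES and PLA2G4A are red and left of 0 in the left panel, and no member is red in the right panel, where PTGFRN lies farthest from 0 at -5.33.

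RGS2 was the pathway gene called lower in both comparisons. PTGS2 and PTGES, called in the knockdown, had log2FCs of 0.11 and -0.52 in old against young cells. PTGS1 and PTGFR, with the largest member values in old cells (1.24 and 1.68), had -0.32 and -0.62 in the knockdown. The comparisons share no samples, and the difference between them was not tested.

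The third set of values concerned I79 cells treated with ICM. The ICM libraries were counted in another way than the I79 young table, so counting and treatment cannot be told apart in a ratio, and no test was run. CPM was computed over the 24639 shared genes. Of 7 members with reads 6 differed from I79 young by an absolute log2 ratio over 0.6, and so did 60.3% of all genes. WT against I79 young, where no label names ICM, had 6 of 7 members and 42.7% of genes past this ratio.

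PTGER4 had the highest ICM to I79 young ratio, at 26.3 and 26.6 CPM in the ICM libraries against 3.94 CPM in young and 5.78 CPM in old I79 (log2 ratio to young 2.72). The ICM libraries lay above every other column, of which HMGB2 KD replicate 1 was the highest at 9.32 CPM. PTGIS had the lowest ratio, at 4.87 and 5.21 CPM against 37.9 CPM in young and 53.7 CPM in old I79 (log2 ratio -2.89). WT and HMGB2 KD libraries, with 2.28 to 4.69 CPM, were lower still, so a low PTGIS was shared by all columns outside the old and young tables.

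PTGS2 was at 13.1 and 22.0 CPM in the ICM libraries against 5.62 CPM in young and 11.6 CPM in old I79 (log2 ratio to young 1.58). In WT it was at 1084 and 614 CPM over the same genes, so that the WT to I79 young log2 ratio was 7.16. The HMGB2 KD libraries, at 212 and 73.5 CPM, also lay above every I79 and I10 column. Counting, isolate and handling of the WT and HMGB2 KD libraries cannot be told apart in these differences. PTGS2 thus spanned the widest range of the members over the 10 columns, from 2.92 CPM in old I10 to 1084 CPM in WT.

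The remaining members differed less. PTGS1 was at 623 and 774 CPM under ICM against 365 CPM in young I79 (log2 ratio 0.93), PTGES at 17.6 and 17.4 CPM against 21.2 CPM (-0.27), and PTGFR at a mean of 8.05 ± 0.065 CPM (SD, n = 2) against 4.89 CPM (0.71). PTGER2 was lower, at 66.4 and 74.4 CPM against 167 CPM (log2 ratio -1.24), near the 76.1 CPM of old I79. Against WT instead of I79 young, the log2 ratio turned to -5.58 for PTGS2, 1.02 for PTGIS, 0.94 for PTGER2 and -0.97 for PTGFR. With ICM limited to coding region reads and I79 young left with all its reads, the log2 ratio of PTGFR was -0.20. Different parts of the gene are then compared, so this sign cannot be read as a reversal. WT was unlike young I79 over the same genes: HMGB2 was at 29.4 and 29.6 CPM in WT against 139 CPM in young and 38.8 CPM in old I79, LMNB1 at 22.8 and 21.1 CPM against 84.2 and 8.42 CPM, and CDKN1A at 1261 and 1297 CPM against 404 and 2384 CPM. Counting, isolate and handling cannot be told apart in these values. A ratio to WT thus cannot be read as a ratio to young I79 cells.

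**Figure D5:**
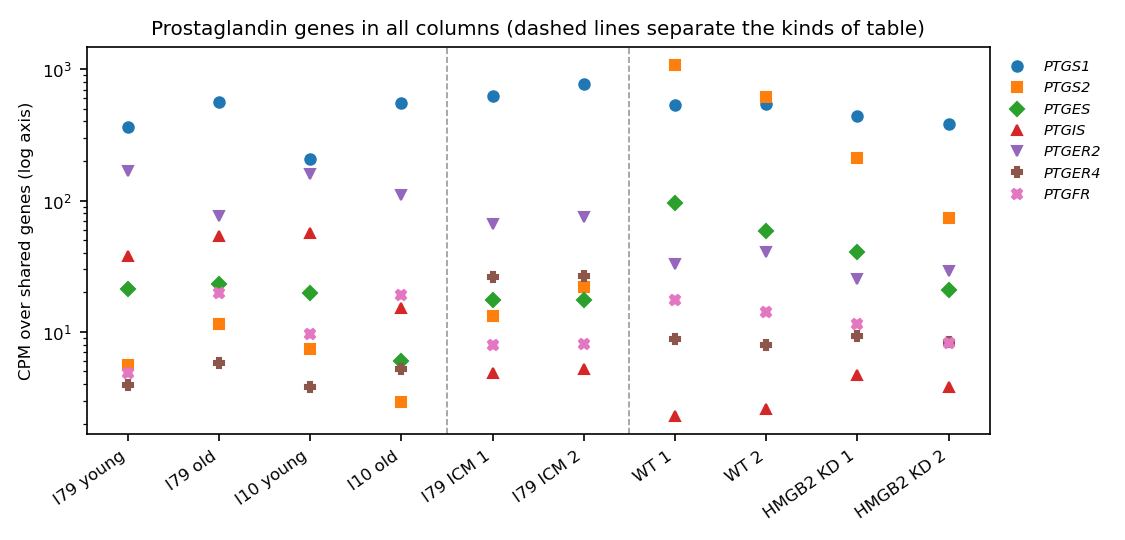
CPM over the shared genes (log axis) of the 7 members with reads in all 10 columns, where each marker is 1 member and dashed lines separate the 3 kinds of table. PTGS2 (orange squares) spans 2.92 to 1084 CPM, PTGS1 (blue circles) stays between 206 and 774 CPM, and PTGER4 (brown plus signs) is highest in the ICM libraries.

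HPGD, the enzyme that begins prostaglandin breakdown (chromosome 4, 175411326 to 175444305, minus strand), was at 0 counts in all 10 columns. Given the upper limit that a count of 0 allows (3 counts), its level was at most 0.0767 CPM in the deepest library, HMGB2 KD replicate 2, and 0.282 CPM in the shallowest, ICM replicate 2, with counting error only. HPGD was therefore not detectable at this depth in any group.

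The genes most like each member were taken as those with the highest Pearson r to it over the 4 WT and HMGB2 KD libraries and the 4 old and young columns, centred within each kind of table. These 8 values share libraries and groups, and each r was picked as the highest among 11616 genes, so r is given as a description. For PTGS2 they were IL18R1 (r 0.990), MMGT1 (0.988) and MPHOSPH8 (0.984). IL18R1, a receptor subunit for the cytokine interleukin 18, stood at 51.1 and 35.1 CPM in the WT libraries, at 22.9 and 12.8 CPM after knockdown, and between 2.69 CPM in old I10 and 4.61 CPM in old I79, whereas MMGT1 moved only between 29.2 and 41.1 CPM. A high r thus says nothing of the size of the change.

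For PTGES the most alike was PRXL2A (r 0.992), at 38.9 and 27.8 CPM in the WT libraries and at 17.0 and 8.89 CPM after knockdown. For PTGS1 it was BEST1 (0.979), followed by DCN (0.954), the proteoglycan decorin of the fibroblast marker list. BEST1 stood at 314 and 310 CPM in the WT libraries and at 251 and 220 CPM after knockdown. In the old and young columns it was at 2.93 to 6.53 CPM. Counting, isolate and handling cannot be told apart in this gap. For the other members they were ZC2HC1A for PTGIS (0.987), GON4L for PTGER2 (0.984), DHRS7 for PTGER4 (0.994) and FMO5 for PTGFR (0.986). PTGS2 and PTGES had no gene in common among their 3 most alike.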

How the data were processed

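RNA-seq of 14 samples in 7 groups was analysed from 10 columns. The authors deposited a table of raw counts per gene for every WT and HMGB2 KD library. Rows that name no gene held between 16.9% and 18.0% of each table's total and were left out of every step. For the old and young groups the authors deposited estimated counts and TPM per transcript, with transcript lengths, in 1 table per group. Whether that table pools replicates was not stated, so it was treated as the authors' value with no SD. For ICM the authors deposited estimated counts per gene and transcript region. Submitters' processing notes name STAR 2.6.0c, featureCounts, DESeq2 and GRCh37. The counter of each table and its use of strand are not given in the sources used here.

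Estimated counts were summed per gene through GENCODE v44 lifted to GRCh37 (97.7% of transcript IDs matched) and rounded. Tests on all genes used edgeR 4.0.16 under R 4.3.3, with its quasi-likelihood test, TMM scaling, filterByExpr and Benjamini-Hochberg adjustment. Old against young had isolate as a covariate. Calls required an adjusted p below 0.01 and a log2 fold change beyond 0.6 in size. Log2 CPM used a prior count of 2. Intervals are exact Clopper-Pearson intervals (95%). DESeq2 1.42.0, other scalings, filters and thresholds, and leaving out each library were alternatives. On simulated counts with 200 genes changed by 1.5 (log2), the knockdown fit recovered 86.5% with 1 false call (15051 genes) and the old against young fit 86.0% with 1 false call (14819 genes). The simulation gave every gene the same dispersion and no difference between isolates. It therefore checks the code and gives no rate of false or missed calls for these data. Replicate libraries differed beyond sampling noise (chi-square over its degrees of freedom was 18.0 in WT, 28.0 in HMGB2 KD and 1.78 in ICM), so none was counted as a duplicate.

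The members, the pathway lists and the tests were chosen with earlier results of these data known. Members were always named. Other pathway genes were named where called, at most 10 per comparison. For each member the 3 genes of highest Pearson r, with a mean of at least 1 CPM in both kinds of table, were listed. Upstream sequences of 7 of 8 members matched RefSeq promoter windows.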

Additional observations from a re-analysis of the deposited data

Results flagged for a closer look

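PTGS2, PTGES and PTGIS were singled out because their old to young ratios went up in I79 and down in I10. The log2 ratio in I79 minus that in I10 was 2.39 for PTGS2, 1.84 for PTGES and 2.41 for PTGIS. Each isolate had 1 column per age, so the difference between the isolates was not tested. The ratio of PTGES in I79 had an interval that included no change.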

How the results depend on the processing

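In the knockdown comparison the number of genes called (797) ranged from 312 to 999 with 1 library left out, lowest without HMGB2 KD replicate 2, and the number of members called (2) ranged from 1 to 2. DESeq2 called 0 members and 891 genes, with an adjusted p of 0.016 for PTGS2 and 0.13 for PTGES. PTGFR was called at an adjusted p under 0.05, without the filter on low counts and with the block below. All 7 tested members kept their direction under all 11 alternatives. The looser threshold is among these and uses the main fit, so no direction could change under it. For old against young, genes called (1447) became 3860 at an adjusted p under 0.05, 4251 without the filter and 3130 under plain totals. Members called (0) became 2 at an adjusted p under 0.05, 3 without the filter, 3 under plain totals, 2 by DESeq2 (2117 genes) and 2 with counts rebuilt from TPM (2093 genes). PTGS2 turned to -0.10 under plain totals. ICM ratios that turned sign against WT were PTGS2 (-5.58), PTGIS (1.02), PTGER2 (0.94) and PTGFR (-0.97). PTGFR was -0.20 with coding region reads for ICM alone and all reads for I79 young, which is not a like comparison. The cause of these changes was not tested.

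The labels of WT and HMGB2 KD share replicate numbers only. Deviations of same-numbered samples from their group means correlated with r = 0.12 over 15338 genes, with 2 pairs. With the replicate number as a block, 1243 genes and 3 members (PTGS2, PTGES and PTGFR) were called. The numbers do not show that samples were paired.

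The limits are those of 2 libraries per group in the knockdown, 1 column per group in old and young, and 3 ways of counting. Low estimated counts (PTGS2, PTGER4 and PTGFR under 400 in old and young columns) limit the precision of those ratios.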

Other observations

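Other genes of the pathway, named where called in a tested comparison, were also read in the ICM libraries over shared genes. PTGR1 stood at 1477 and 1513 CPM under ICM, against 117 CPM in young and 115 CPM in old I79 and 59.4 to 109 CPM in the WT and HMGB2 KD libraries. It was the named pathway gene with the highest ICM to I79 young log2 ratio, 3.67, and it was 3.86 against WT. AKR1B1 stood at 1173 and 1260 CPM under ICM against 156 CPM in young and 478 CPM in old I79 (log2 ratio to young 2.96). It was at 378 to 698 CPM in the WT and HMGB2 KD libraries, and its ICM to WT log2 ratio was 1.06. Both enzymes are reductases. ICM and the counting of these tables cannot be told apart in these values, and no test was run.

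PTGFRN stood at 4.93 and 5.69 CPM under ICM, between the 10.9 CPM of young and the 0.110 CPM of old I79. PLA2G4A stood at 69.5 and 47.2 CPM in WT over shared genes but at 5.84 CPM in young I79 and 12.4 and 12.9 CPM under ICM. NR4A2 was likewise higher in WT, at 338 and 290 CPM, than in young I79 at 14.7 CPM. PTGS2, PLA2G4A and NR4A2 thus shared a high level in the WT libraries relative to the I79 and I10 columns. Counting, isolate and handling cannot be told apart in that difference.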
